A study of Mus musculus with 12 samples.

Results

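Interferon-stimulated genes were followed as a set of 49 genes, matched by symbol in the deposited table of 54532 genes, in mouse colonoids (colon epithelial organoids) with and without hemin. The symbols come from a list, with no threshold on values, and all 49 were found. The list was chosen with earlier results of these data known, so counts of members set against all genes are a description. By role it held 23 antiviral effectors, 5 sensors of foreign nucleic acid, 4 transcription factors, 5 modifiers and feedback genes, 6 GTPases and 6 further genes. There were 12 poly-A mRNA libraries in 4 groups of 3. Control colonoids came from Hmox1 fl/fl mice, whose Hmox1 gene (heme oxygenase 1, which breaks down heme) carries sites for Cre but no Cre. The other colonoids came from mice that also carried Vil1-Cre, a Cre recombinase under the villin promoter of gut epithelium, and were labelled KO. Both were kept with vehicle or with hemin, an oxidised heme with chloride as ligand, taken here as 200 µM for 24 hours. In the label of replicate 3 of the labelled KO colonoids with hemin, the genotype reads Hmox1 fl/fl with Vil1 Cre, where the other KO libraries read Hmox1 KO with Vil1 Cre. By the study's methods the mice were 8 to 12 weeks old. The sources do not say whether the 3 libraries of a group came from separate mice, so p-values measure only the spread between these libraries, which may be technical.

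Values are FPKM, the fragments of a gene per kilobase of its length, on a scale that the deposited values share between libraries. The libraries held between 11648801 and 25101868 fragments on genes, the smallest being the 3 control libraries with hemin and the largest replicate 2 of labelled KO with hemin. One non-coding RNA, Gm23935, took 29.0% of the summed FPKM in control hemin replicate 1, 21% in labelled KO hemin replicate 2 and 16.8% in control vehicle replicate 1, against at most 2.81% elsewhere. Hmox1 itself did not follow the label under hemin. Its FPKM was 7.62, 6.85 and 7.90 in control with vehicle and 3.14, 2.11 and 2.31 in labelled KO with vehicle. With hemin it was 503, 483 and 382 in control, and 1279, 1393 and 1271 in labelled KO, a log2 fold change between genotypes of 1.53 (SE 0.12, adjusted p = 3.3e-06, limma). Under vehicle it was lower in labelled KO, by a log2 difference of −1.27. A value per gene cannot tell which exons gave the fragments. The genotype is therefore named as the label has it, and the direction of each difference between genotypes depends on that label.

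The epithelial label fitted its markers, whose summed FPKM over 10 genes (Epcam, Cdh1, Vil1 and keratins among them) was 5974 to 10325 in every library. The sum was 5974 to 6020 in labelled KO with vehicle and 8394 to 9377 in control with vehicle. Single epithelial markers moved with the groups. Krt20, a keratin of differentiated colonocytes, had log2 changes with hemin of 0.77 in control and 1.41 in labelled KO, and Lgr5, a stem cell receptor, of −0.94 and −1.40. Cdx2, an intestinal transcription factor, was lower in labelled KO, with log2 differences of −2.03 under vehicle and −1.27 under hemin. The part of these differences in the results below was not tested. Immune markers, 8 genes, summed to 1.02 to 5.20, of which Cd68, a lysosomal protein of macrophages, made 72% to 99.2% of a library's sum, while Ptprc, the pan-leukocyte marker CD45, reached 0.019 at most. Cd68 itself was 0.756 to 1.47 in labelled KO with vehicle and 2.87 to 3.88 with hemin, and its part in the results below was not tested. Fibroblast markers summed to 0.443 to 1.35, with Col1a2 and Dcn at 0 in all 12 libraries, and endothelial markers to 0.0388 to 0.283. The genotypes also differed in genes of colon position. The summed FPKM of 6 posterior Hox genes was 7.76 to 14.1 in control and 196 to 209 in labelled KO, and Hoxb13, Hoxd13, Hoxd11 and Hoxd10 were at 0 in all 6 control libraries. For every comparison between genotypes below, genotype and colon segment of origin cannot be told apart. In such bulk samples, fewer cells of a type and less RNA per cell cannot be told apart either.

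Interferons are secreted proteins that cells make on sensing viral or misplaced nucleic acid. Type I and type III interferons act through receptors coupled to the kinases JAK1 and TYK2, which activate STAT2. STAT2 and IRF9 belong to a complex that binds the interferon-stimulated response element (ISRE) of target promoters. Type II interferon acts on a second element (GAS). In gut epithelium, type III interferon is known as a main antiviral signal. Several target genes, such as Irf7, Irf9, Stat2 and the sensors, encode parts of the pathway itself.

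The promoters show which members carry the element. RefSeq promoter windows of 300 bases (250 before to 50 after the start, GRCm38.p6) matched 38 of the 49 members. The core of the ISRE, GAAANNGAAA or TTTCNNTTTC on the strand shown, stood in the windows of 24 of these 38 genes (63.2%), against 3.99% of 27025 genes with a window. The GAS letters TTCNNNGAA, the same on both strands, stood in 26.3% of the member genes and 9.55% of all. Such matches are a description of the letters, not of binding. The 160 bases before the start are shown for 7 members chosen because they hold a match there, 6 that were called higher with hemin in labelled KO and Ifitm2, which was called lower. Of the members called higher there, 12 have a window and 8 of these hold a match, and of those tested and not called, 13 have a window and 8 hold a match. Irf7, Irf9, Oasl1 and Oasl2 are called members whose windows hold none. The sequences are written 5′ to 3′ on the gene's strand, with ISRE core matches in capitals, and overlapping matches run together.
Isg15: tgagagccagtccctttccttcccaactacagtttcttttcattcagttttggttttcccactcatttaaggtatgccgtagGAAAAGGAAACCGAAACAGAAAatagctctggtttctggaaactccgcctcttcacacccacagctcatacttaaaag
Ifit1: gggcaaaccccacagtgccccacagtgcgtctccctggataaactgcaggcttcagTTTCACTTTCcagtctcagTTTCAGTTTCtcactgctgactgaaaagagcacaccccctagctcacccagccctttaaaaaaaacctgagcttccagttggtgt
Ifit3: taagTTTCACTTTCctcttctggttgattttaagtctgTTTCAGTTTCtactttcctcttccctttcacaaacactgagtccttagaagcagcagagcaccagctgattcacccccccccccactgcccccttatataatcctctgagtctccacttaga
Rsad2: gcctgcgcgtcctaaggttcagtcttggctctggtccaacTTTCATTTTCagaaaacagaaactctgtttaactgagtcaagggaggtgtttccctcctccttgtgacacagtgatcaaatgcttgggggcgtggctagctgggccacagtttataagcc
Oas3: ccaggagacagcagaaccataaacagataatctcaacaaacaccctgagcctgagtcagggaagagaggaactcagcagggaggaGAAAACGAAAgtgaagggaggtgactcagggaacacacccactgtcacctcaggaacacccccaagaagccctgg
Ddx60: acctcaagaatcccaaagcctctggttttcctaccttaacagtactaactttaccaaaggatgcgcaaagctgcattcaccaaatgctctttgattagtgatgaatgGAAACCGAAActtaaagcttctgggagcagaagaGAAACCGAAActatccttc
Ifitm2: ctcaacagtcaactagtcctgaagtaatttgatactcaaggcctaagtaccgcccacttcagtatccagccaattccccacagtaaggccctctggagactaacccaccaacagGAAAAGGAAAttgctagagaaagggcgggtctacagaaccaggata
These lie at chr4:156200819-156200978 (minus strand) for Isg15, chr19:34640729-34640888 (plus) for Ifit1, chr19:34583369-34583528 (plus) for Ifit3, chr12:26456453-26456612 (minus) for Rsad2, chr5:120777660-120777819 (minus) for Oas3, chr8:61927927-61928086 (plus) for Ddx60 and chr7:140955962-140956121 (minus) for Ifitm2. The Isg15 window holds 3 overlapping matches, those of Ifit1, Ifit3 and Ddx60 hold 2 each and the other 3 windows hold 1 each. A match thus stood upstream both of genes that were higher and of a gene that was lower with hemin.

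**Figure D1:**
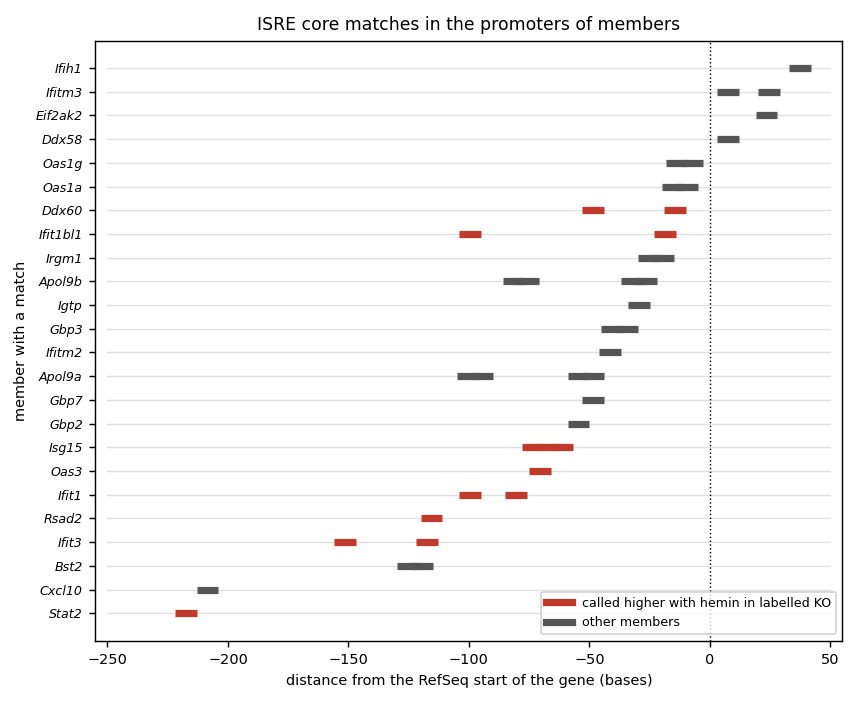
Position of each ISRE core match in the promoter windows of the 24 members that hold one. The x axis is the distance from the RefSeq start in bases, each bar is a match, and red marks members called higher with hemin in labelled KO. Matches of 4 members (Ifih1, Ifitm3, Eif2ak2 and Ddx58) lie after the start, and those of the other 20 before it.

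Most members were expressed at low to moderate levels. The tests covered genes that reached an FPKM of 1 in 3 or more libraries, 12740 genes in all (23.4% of the table) and 32 of the 49 members (65.3%). Of these 32, Oas3 and Rsad2 passed through the labelled KO libraries with hemin only, and Ifitm3 through the labelled KO libraries with vehicle only. A gene that passes in this way had to differ, so the values of these 3 in the fit are a description, given without a p. Ifit3 passed through libraries with hemin only, of both genotypes. It stays in the counts without these 3, though its hemin change also leans on the filter. The highest mean of the 4 groups was in labelled KO with hemin for 32 of the 49 members. It was in control with hemin for 10, in labelled KO with vehicle for 5 and in control with vehicle for 2. The same share over all genes was not counted, and members near 0 fragments are included. Among the 32 members tested, the highest mean was in labelled KO with hemin for 22. The other 17 members reached between 0.0233 and 1.87 FPKM in their highest library. They were Ifit2, Oas2, Mx1, Mx2, Ifitm1, Xaf1, Sp100, Zbp1, Usp18, Gbp2, Gbp3, Gbp7, Iigp1, Ifi44, Cxcl10, Apol9a and Apol9b. Iigp1, an immunity-related GTPase, had 0 or 1 fragment in every library. Mx1 and Mx2 encode antiviral dynamin-like GTPases and stayed at 40 and 10 fragments or fewer. Reads of the near-identical pairs Oas1a and Oas1g, and Apol9a and Apol9b, may be split between the copies, so their single values are uncertain.

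**Figure D2:**
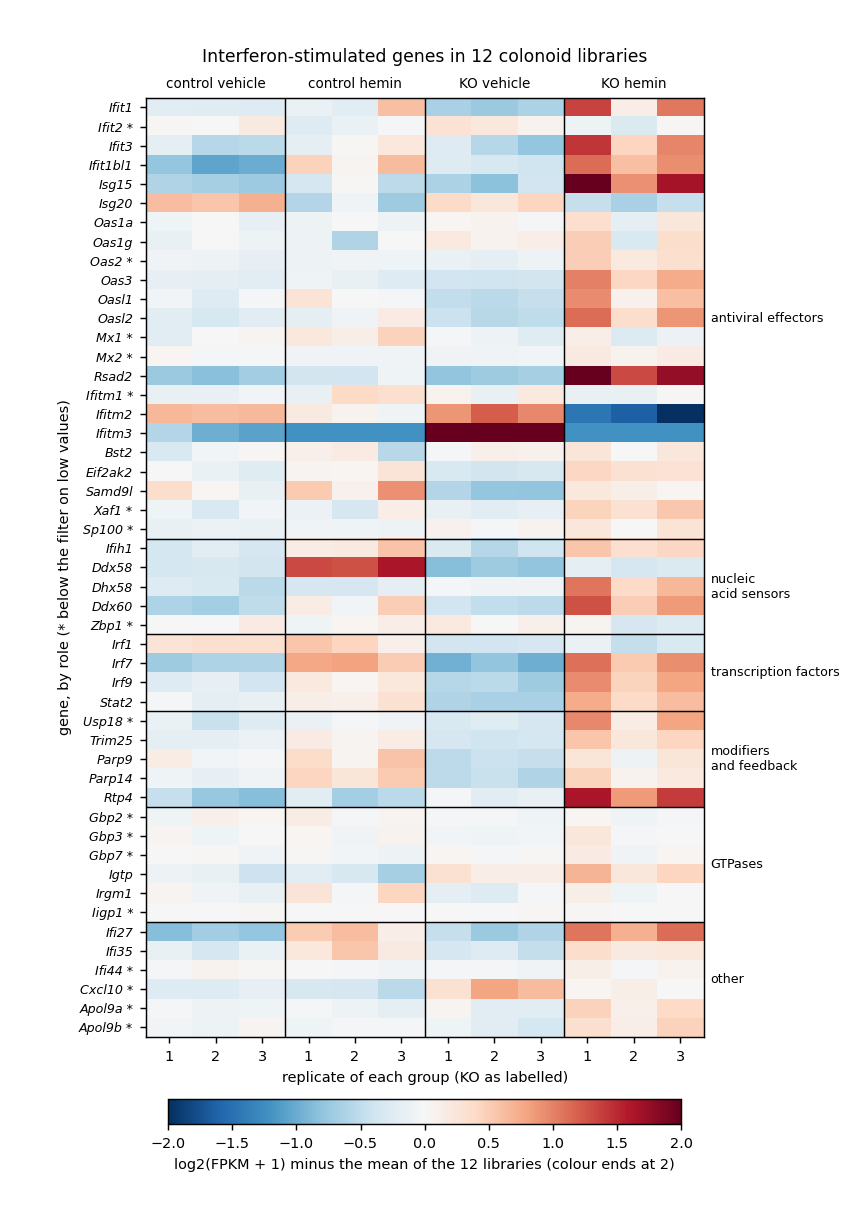
Level of all 49 members in the 12 libraries, as log2(FPKM + 1) minus the gene's mean over the libraries, grouped by role (y axis) and by group and replicate (x axis). Asterisks mark the 17 members below the filter. The labelled KO libraries with hemin hold the highest means of 32 members, 22 of them among those tested. Ddx58 is highest in control with hemin and Ifitm3 in labelled KO with vehicle.

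The first question was what hemin did to these genes in colonoids labelled KO. Of the 32 members tested, 14 rose and 2 fell, where a call needs both an adjusted p under 0.05 and a log2 change above 1 in size. Over all genes tested, 4.87% were called higher and 8.07% lower (12.9% in either direction). Without the 3 genes that passed the filter through 1 group, 12 of 29 members rose and 1 fell. The genes that rose were antiviral effectors (Rsad2, Isg15, Ifit1, Ifit3, Ifit1bl1, Oas3, Oasl1 and Oasl2), the transcription factors Irf7, Irf9 and Stat2, the sensor-like helicase Ddx60, the chaperone Rtp4, and Ifi27. The genes that fell were Ifitm2 and Ifitm3, which encode membrane proteins that block virus entry. By the adjusted p alone, 23 members were higher and 3 lower, against 29.9% and 30.4% of all genes. The groups did not overlap, higher with hemin, in 23 members, against 37.2% of all genes. The median change of the 32 members was 0.80 on the log2 scale, and that of all genes tested was −0.00190. It was 0.77 over the 29 members. Setting Ifitm3 at its bound (given below) leaves it at 0.80, which was fixed in advance, as Ifitm3 already had the lowest value.

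Rsad2, which encodes viperin, an antiviral radical SAM enzyme, had the largest fitted change among those called higher. The gene lies at chr12:26442746-26456452 on the minus strand (mm10, as deposited). Its FPKM was 0.0988, 0.160 and 0.192 in labelled KO with vehicle and 7.69, 3.73 and 5.39 with hemin. In control it was 0.126, 0.0540 and 0.168 with vehicle and 0.465, 0.449 and 0.790 with hemin. The 3 labelled KO libraries with hemin thus stood above all others, at 335 to 480 fragments each against 40 or fewer elsewhere. On the log2(FPKM + 1) scale, which understates the change of low genes, the change in labelled KO was 2.48 (SE 0.18), and the ratio of mean FPKM was 37.3. In control the log2 change was 0.48 and the ratio 4.90. With limma-voom and a minimum of 10 fragments summed over the 12 libraries, a filter that reads no group and was added after seeing the data, the log2 change in labelled KO was 5.09 (SE 0.57, adjusted p = 2.3e-06).

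Isg15 encodes a ubiquitin-like protein that is attached to other proteins and secreted, and lies at chr4:156199424-156200818 on the minus strand. Its FPKM in labelled KO was 1.70, 1.38 and 2.20 with vehicle and 16.6, 6.86 and 12.3 with hemin, a log2 change of 2.16 (SE 0.25, adjusted p = 2.3e-05). In control it was 1.76, 1.63 and 1.54 with vehicle and 2.32, 3.24 and 1.92 with hemin. The control groups did not overlap either, but their log2 change of 0.39 did not pass the test (adjusted p = 0.22). The fit takes 1 spread per gene over all 4 groups, so this p also carries the spread of the other groups. The SD of FPKM was 0.11 in control with vehicle and 4.89 in labelled KO with hemin.

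Ifit1 and Ifit3 encode tetratricopeptide proteins that bind viral RNA or partner with each other. Ifit1 was at 1.70, 1.52 and 1.72 FPKM in labelled KO with vehicle and at 9.75, 3.62 and 7.79 with hemin, a log2 change of 1.52 (SE 0.28, adjusted p = 0.00078). The control libraries with hemin, at 2.84, 2.61 and 5.38, overlapped control with vehicle at 2.63, 2.56 and 2.52. Ifit3 was at 0.806, 0.464 and 0.272 with vehicle and 4.86, 1.92 and 3.28 with hemin in labelled KO, a log2 change of 1.48 (SE 0.23, adjusted p = 0.00024). It reached an FPKM of 1 only in libraries with hemin, so this p is not free of the filter. With limma-voom on genes with at least 10 fragments the log2 change was 2.60 (SE 0.48, adjusted p = 0.00033). Ifit1bl1, a further gene of the Ifit cluster on chromosome 19, was the most abundant of the 3, at 22.8, 21.9 and 20.5 with vehicle and 60.8, 42.1 and 53.4 with hemin in labelled KO. It rose in both genotypes, with log2 changes of 1.21 in labelled KO and 1.32 in control. Reads of Ifit3 may be shared with its near copy Ifit3b, which rose by 1.08 in labelled KO.

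The Oas family encodes enzymes and enzyme-like proteins that respond to double-stranded RNA. Oas3 was at 0.320, 0.303 and 0.328 FPKM with vehicle and 2.43, 1.29 and 1.86 with hemin in labelled KO, and between 0.436 and 0.620 in all 6 control libraries. Its fitted log2 change in labelled KO was 1.10 (SE 0.13), and 2.43 in limma-voom on genes with at least 10 fragments (SE 0.29, adjusted p = 3.7e-06). Oasl2 rose from 0.912, 0.753 and 0.811 to 4.62, 2.28 and 3.76 in labelled KO, a log2 change of 1.28 (SE 0.17, adjusted p = 5.9e-05). Oasl1, a regulator of Irf7 translation, was at 8.56, 8.25 and 8.75 with vehicle and 24.8, 13.2 and 19.3 with hemin (log2 change 1.04, SE 0.18, adjusted p = 0.00043). Oas1a and Oas1g had log2 changes of 0.11 and 0.05 and did not pass the test. The calls thus covered 3 of the 5 Oas and Oasl members tested, 1 of them Oas3. Of the other antiviral effectors, Samd9l and Eif2ak2 (PKR, a kinase that halts translation on double-stranded RNA) were higher by the adjusted p, with changes of 0.83 and 0.67, and Bst2 (tetherin) had a change of 0.10 that did not pass. In all, 8 of the 16 antiviral effectors tested were called higher and 2 lower, against 4.87% and 8.07% of all genes, with Rsad2, Oas3 and Ifitm3 among them.

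**Figure D3:**
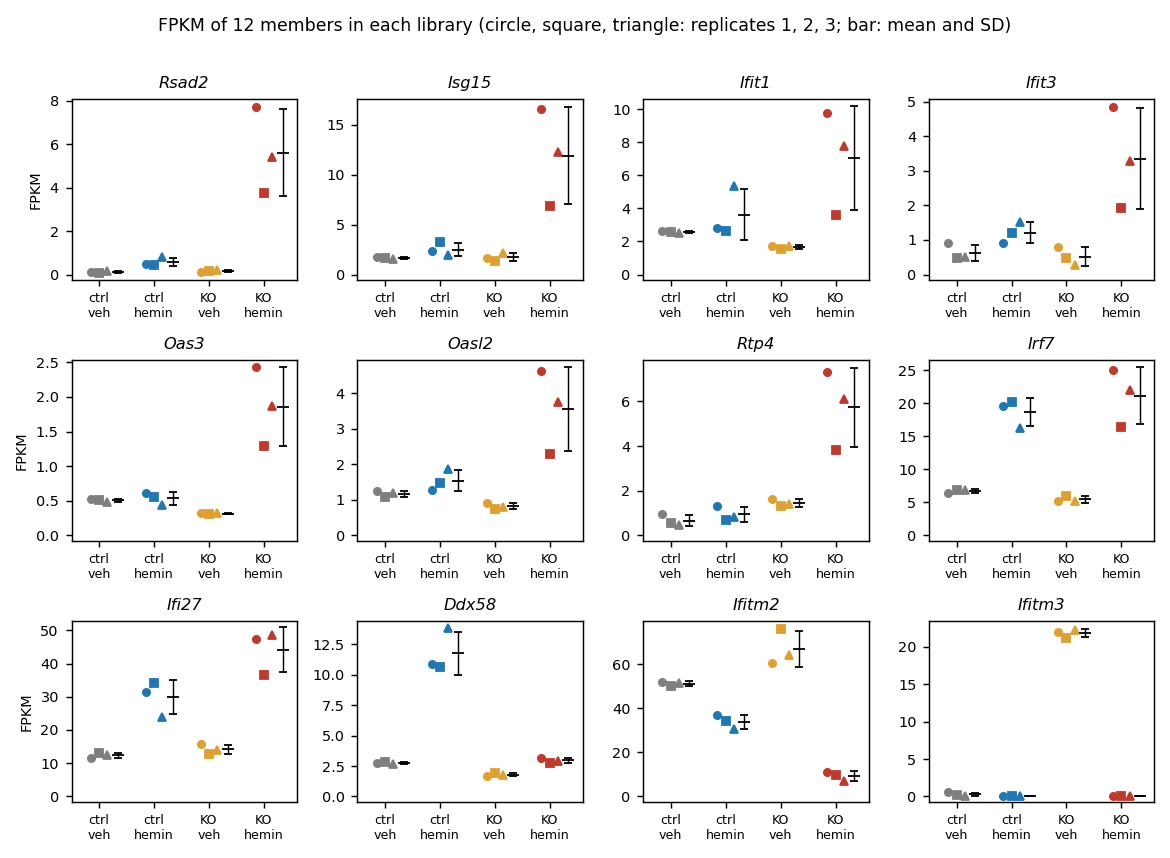
FPKM of 12 members in each library (y axes), by group (x axes). Shapes are replicates 1, 2 and 3, and the black bar beside them is the mean with its SD (n = 3). Rsad2, Isg15, Oas3, Oasl2 and Rtp4 are highest in the labelled KO libraries with hemin, Irf7 and Ifi27 are raised by hemin in both genotypes, and Ddx58 stands out in control with hemin.

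Of the 4 transcription factors, 3 rose in labelled KO, against 4.87% of all genes. Irf7, a master regulator of interferon genes, was at 5.23, 6.04 and 5.16 FPKM with vehicle and 25.05, 16.4 and 22.0 with hemin, a log2 change of 1.76 (SE 0.13, adjusted p = 9.4e-07). Irf9, the DNA-binding part of the ISRE complex, was at 2.85, 2.93 and 2.503 with vehicle and 10.1, 6.79 and 8.93 with hemin (log2 change 1.34, adjusted p = 3.1e-06). Stat2, its partner, was at 3.99, 3.84 and 3.83 with vehicle and 11.6, 8.83 and 10.5 with hemin (log2 change 1.20, adjusted p = 1.1e-06). Irf1, which acts more in the response to type II interferon, had a log2 change of 0.06 (adjusted p = 0.67). Irf7 overlaps the expressed gene Phrf1 on the opposite strand, and Irf9 overlaps Rnf31 on the same strand. Whether counting used the strand is not given in the sources used here, so reads there cannot be assigned with certainty.

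All 4 sensors tested were higher with hemin in labelled KO by the adjusted p, which 29.9% of all genes passed in that direction, and Ddx60 alone exceeded a log2 change of 1. Ddx60, a helicase linked to RNA sensing, was at 1.13, 0.986 and 0.944 FPKM with vehicle and 5.77, 2.90 and 4.005 with hemin (log2 change 1.34, SE 0.19, adjusted p = 9.5e-05). The changes of Ifih1 (MDA5, a sensor of long double-stranded RNA), Dhx58 (LGP2) and Ddx58 (RIG-I) were 0.84, 0.76 and 0.51. Among modifiers, Rtp4, a chaperone that also limits viral replication, was at 1.64, 1.30 and 1.42 with vehicle and 7.30, 3.83 and 6.08 with hemin (log2 change 1.42, SE 0.19, adjusted p = 8.1e-05). Trim25, a ubiquitin ligase that activates RIG-I, and the ADP-ribosyltransferase family genes Parp14 and Parp9 had changes of 0.77, 0.76 and 0.60, each past the adjusted p and below the size threshold. Ifi27, a mitochondrial protein, was at 15.6, 12.7 and 14.05 with vehicle and 47.4, 36.5 and 48.6 with hemin, a log2 change of 1.57 (SE 0.14, adjusted p = 3.1e-06). Ifi35 had a change of 0.60. The 2 GTPases tested, Igtp and Irgm1, had changes of 0.25 and 0.17 and did not pass the test.

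The Ifitm genes ran the other way. Ifitm2 and Ifitm3 lie near each other, at chr7:140954837-140955987 and chr7:141009586-141010770, both on the minus strand. Ifitm2 was at 60.4, 76.3 and 64.2 FPKM in labelled KO with vehicle and at 11.2, 9.73 and 7.02 with hemin, a log2 change of −2.73 (SE 0.14, adjusted p = 5.6e-08). Ifitm3 was at 22.0, 21.2 and 22.3 with vehicle, and at 0 in all 3 libraries with hemin. Taking 3 fragments per library as the floor, its level was at least 81.5-fold lower with hemin. Isg20, an RNA exonuclease, had a change of −0.87 (adjusted p = 0.00035). Ifitm1, the remaining gene of this family in the set, had 5 fragments or fewer in each labelled KO library and allows no statement.

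**Figure D4:**
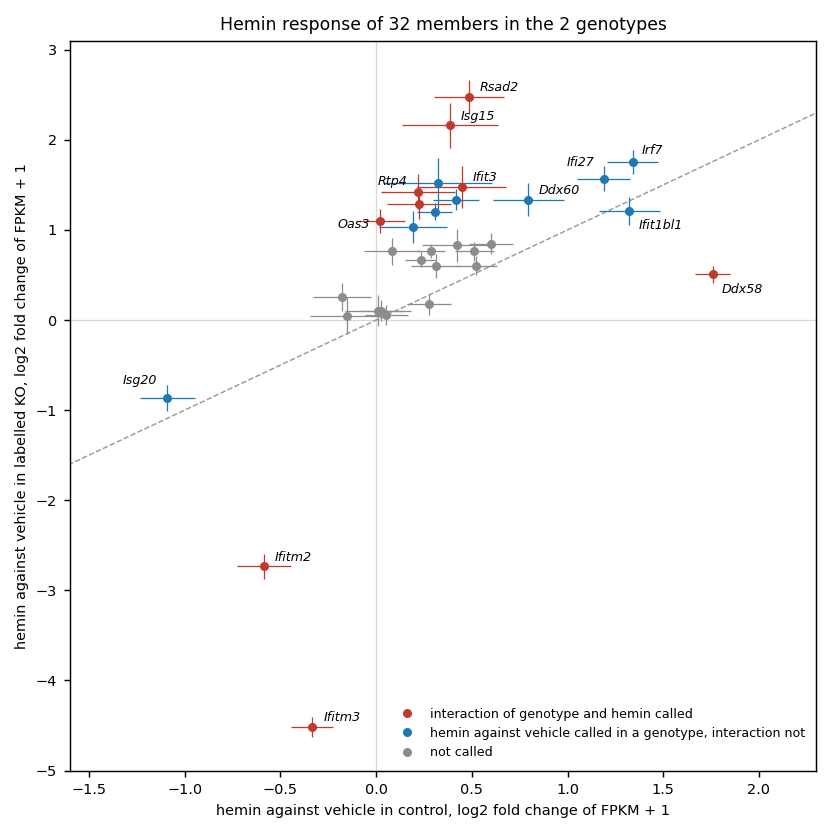
Log2 fold change of hemin against vehicle for the 32 members tested, in control (x axis) and labelled KO (y axis), on the log2(FPKM + 1) scale. Bars are standard errors, the dashed line marks equal change, red points passed the test of the difference between genotypes and blue points passed in a genotype only. Rsad2 and Isg15 lie above the line at 2.48 and 2.16, Ddx58 lies below it, and Ifitm2 and Ifitm3 are at −2.73 and −4.51 in labelled KO.

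In control colonoids hemin changed fewer members. Of 32 members, 4 rose and 1 fell, against 2.17% and 5.93% of all genes tested (8.11% in either direction). Those that rose were Ddx58, Irf7, Ifit1bl1 and Ifi27. The gene that fell was Isg20. By the adjusted p alone, 13 members were higher and 3 lower, against 23.2% and 26.7% of all genes (49.9% in either direction), and the median change of the members was 0.30 (all genes −0.0125). The groups did not overlap, higher with hemin, in 16 members, against 24.6% of all genes, and lower in 3, against 27.8%.

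Ddx58 encodes RIG-I, the sensor of short double-stranded RNA with a triphosphate end, and lies at chr4:40203773-40239828 on the minus strand. Its FPKM in control was 2.73, 2.82 and 2.70 with vehicle and 10.9, 10.6 and 13.8 with hemin, a log2 change of 1.76 (SE 0.09, adjusted p = 1.2e-07). In labelled KO it was 1.67, 1.93 and 1.77 with vehicle and 3.18, 2.78 and 2.92 with hemin. The control libraries with hemin thus lay above all 9 others. Irf7 in control was at 6.44, 6.93 and 6.96 with vehicle and 19.7, 20.3 and 16.3 with hemin, a log2 change of 1.34 (adjusted p = 1.3e-05). Ifi27 was at 11.7, 13.2 and 12.4 with vehicle and 31.6, 34.1 and 24.0 with hemin (log2 change 1.19, adjusted p = 4.2e-05). Isg20 was at 6.42, 6.10 and 6.92 with vehicle and 2.22, 3.59 and 1.93 with hemin, a log2 change of −1.09 (adjusted p = 9.9e-05). Without control hemin replicate 3 the change of Isg20 was −0.96 and no longer a call.

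Whether hemin acted differently in the 2 genotypes was tested directly as the interaction of genotype and hemin. Of 32 members, 6 had a larger log2 change in labelled KO and 3 a smaller or more negative one, against 2.57% and 2.56% of all genes tested (5.13% in either direction). Without the 3 genes that passed the filter through 1 group, it was 4 and 2 of 29. The 6 were Rsad2 (difference of log2 changes 1.99, SE 0.26), Isg15 (1.77, SE 0.35, adjusted p = 0.0042), Rtp4 (1.20, SE 0.27, adjusted p = 0.0088), Oas3 (1.08, SE 0.18), Oasl2 (1.06, SE 0.24, adjusted p = 0.0079) and Ifit3 (1.03, SE 0.33, adjusted p = 0.044). The 3 were Ifitm3 (−4.18), Ifitm2 (−2.15, SE 0.20, adjusted p = 3.2e-05) and Ddx58 (−1.25, SE 0.13, adjusted p = 6.3e-05). Ifitm3 was at 0 in both groups with hemin and at 1 to 6 fragments in control with vehicle, so its value is that of the vehicle difference with the sign turned and is no measure of a differing response. Irf9 and Stat2 passed the adjusted p with differences of 0.92 and 0.90. Ifit1 had a difference of 1.20 that missed it (SE 0.40, adjusted p = 0.052), and those of Irf7 (0.42, adjusted p = 0.14), Ifi27 (0.38, adjusted p = 0.20) and Ifit1bl1 (−0.11, adjusted p = 0.77) did not pass. Without labelled KO hemin replicate 1, 5 of 30 members were called in place of 9 of 32, 2 with a larger change in labelled KO and 3 with a smaller or more negative one. Rsad2 and Oas3 then failed the filter on low values. The Ifit3 call was lost under most alternatives (adjusted p of 0.062 to 0.17 where lost). With limma-voom on recovered fragments the calls of Rsad2, Isg15 and Rtp4 were lost, at differences of 2.74, 2.01 and 1.37 (adjusted p = 0.069, 0.062 and 0.12). With TPM, a rescaling of each library to the same total, those of Oasl2, Rtp4 and Ifit3 were lost. Their differences were 1.27, 1.21 and 1.27 (adjusted p = 0.072, 0.064 and 0.17), which left 3 members called in each direction.

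The level at which the genotypes started was compared under vehicle. Here 1 of 32 members was called, Ifitm3, higher in labelled KO, against 3.53% of all genes called higher and 3.27% called lower (6.8% in either direction). Its FPKM was 0.537, 0.173 and 0.107 in control, from 1 to 6 fragments, and 22.0, 21.2 and 22.3 in labelled KO, from 244 to 254 fragments. The groups did not overlap, and the fitted log2 difference of 4.18 depends on the pseudocount. Of the 29 members that did not pass the filter through 1 group, 0 were called in limma, with 13 at an unadjusted p under 0.05, against 42.4% of all genes, and, by the adjusted p alone, 7 lower and 2 higher. With limma-voom on genes with at least 10 fragments, 4 of 48 members were called, against 12.2% of all genes tested that way. They were Ifitm3 and 3 members below the filter. By the adjusted p alone, 3 members were higher and 7 lower in labelled KO, against 17.4% and 16.8% of all genes. The 7 were Samd9l (−0.80), Irf1 (−0.67), Stat2 (−0.50), Parp9 (−0.49), Ddx58 (−0.43), Parp14 (−0.41) and Irf9 (−0.34), and besides Ifitm3 the higher ones were Ifit1bl1 (0.61) and Rtp4 (0.57). The groups did not overlap, lower in labelled KO, in 15 members, against 26.9% of all genes, and higher in 7, against 30.6%. Among the 32 members tested, the lowest of the 4 group means was in labelled KO with vehicle for 18, and for 29.4% of all genes tested. The median difference was −0.13, and 0.0188 over all genes.

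Under hemin, 3 members were higher in labelled KO than in control and 2 lower, against 3.1% and 2.91% of all genes tested (6.01% in either direction). Without the 3 genes that passed the filter through 1 group, it was 2 and 2 of 29. Rsad2 (log2 difference 2.04, SE 0.18), Isg15 (1.83, SE 0.25, adjusted p = 0.00019) and Rtp4 (1.77, SE 0.19, adjusted p = 3.6e-05) were higher. Ifitm2 (−1.77, SE 0.14, adjusted p = 3.1e-06) and Ddx58 (−1.68, SE 0.09, adjusted p = 1.4e-07) were lower. Rtp4 was at 1.32, 0.675 and 0.844 FPKM in control with hemin and 0.939, 0.577 and 0.478 with vehicle, below each labelled KO library of the same treatment. Ifitm2 was at 51.9, 50.03 and 51.7 in control with vehicle and 37.1, 34.1 and 30.6 with hemin, and no library overlapped between the genotypes in either treatment. By the adjusted p alone, 14 members were higher and 3 lower in labelled KO, against 19.7% and 14.7% of all genes (34.4% in either direction), and 12 and 3 of the 29. The median difference was 0.34, and 0.0375 over all genes. The count of calls moved with the settings and with single libraries. It was 10 (8 higher, 2 lower) with a pseudocount of 0.1, where 10.5% of all genes were called, and also with limma-voom, where 11% were. It was 9 (7 higher, 2 lower) with TPM, against 8.47% of all genes, and 1 with a mean FPKM of at least 5, against 5.55%. There were 8 calls without labelled KO hemin replicate 2, 8 without control hemin replicate 3 and 4 without labelled KO hemin replicate 1, against 6.19%, 6.14% and 5.97% of all genes.

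The 3 labelled KO libraries with hemin differed in how far these genes rose. Of the 14 members called higher there, replicate 2 was the lowest of the 3 in 14, and replicate 1 the highest in 13. Their median log2 deviation from the group mean was 0.34 in replicate 1, −0.41 in replicate 2 and 0.06 in replicate 3. Over all 620 genes called higher with hemin in labelled KO, replicate 2 was the lowest in 352 (56.8%), with a median deviation of −0.0405, and over all genes tested in 40%. Replicate 2 was also the deepest library and the one with 21% of its FPKM in Gm23935, whose part was not tested. Without it, 14 members were called in labelled KO, 12 higher and 2 lower. Oas3 and Rsad2 then failed the filter on low values, since only 2 libraries then reached an FPKM of 1. Without replicate 1, 13 were called, 11 higher and 2 lower, and the same 2 genes failed the filter.

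**Figure D5:**
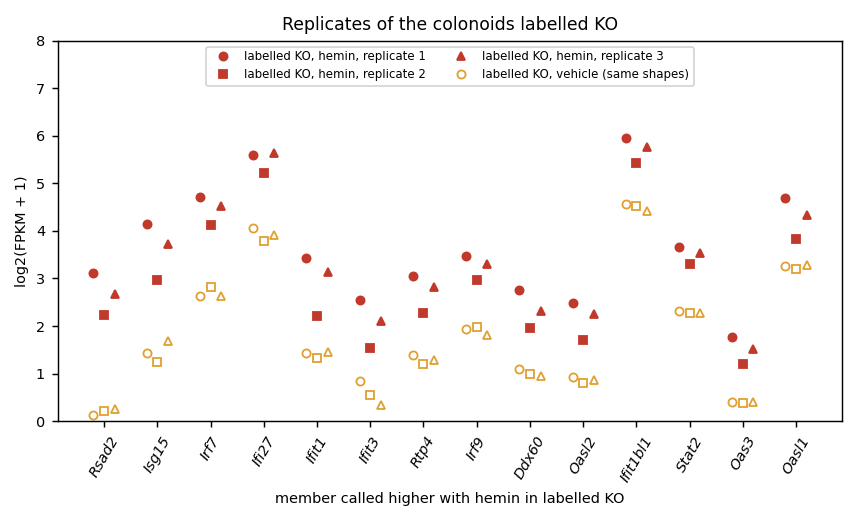
Level of the 14 members called higher with hemin in labelled KO, as log2(FPKM + 1), with filled red shapes for the 3 libraries with hemin and open shapes for the 3 with vehicle. Squares mark replicate 2, the lowest of the 3 with hemin in all 14 genes, which were chosen on these 6 libraries.

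The 17 members below the filter were followed as fragments. limma-voom on the recovered fragments of genes with at least 10 fragments in total, a test chosen after seeing the data, covered 16 of them. With hemin in labelled KO, 6 of the 16 rose and 3 fell, against 6.39% and 14.4% (20.8% in either direction) of the 20117 genes tested that way. Usp18, a protease that removes Isg15 and dampens the receptor, was at 0.197, 0.249 and 0.170 FPKM with vehicle and 1.87, 0.625 and 1.55 with hemin (log2 change 2.38, SE 0.56, adjusted p = 0.0022). Oas2 was at 0.124, 0.0780 and 0.147 with vehicle and 0.733, 0.401 and 0.532 with hemin (log2 change 2.14, SE 0.38, adjusted p = 0.00021). Xaf1, an apoptosis-linked factor, had a log2 change of 1.43 (adjusted p = 0.00080), Apol9a and Apol9b had changes of 2.31 and 2.32, and Mx2 rose from at most 1 fragment to 9 or 10. The chemokine Cxcl10, which attracts T cells, was at 0.788, 1.52 and 1.24 FPKM in labelled KO with vehicle and 0.493, 0.566 and 0.464 with hemin, a log2 change of −1.14 (SE 0.38, adjusted p = 0.021). Ifit2, of the Ifit family, and Zbp1, a sensor of Z-form nucleic acid, had changes of −1.23 and −1.52. In control with hemin, 1 of the 16 was called, Mx2, which was lower, against 4.53% of genes called higher and 9.26% lower. Mx2 had 2 to 5 fragments per library in control with vehicle and 0 with hemin. Each call of Mx2 thus involves counts at or near the floor of 3 fragments. Between genotypes, 2 were higher (Cxcl10 and Sp100) and 1 lower (Mx2) under vehicle, against 6.84% and 5.33%. Under hemin, 6 were higher (Apol9a, Cxcl10, Mx2, Oas2, Sp100 and Xaf1) and 1 lower (Mx1), against 5.02% and 5.96%. The interaction was called for 4, all with the larger change in labelled KO (Apol9a, Apol9b, Mx2 and Oas2), against 2.56% called in that direction.

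The ligands and receptors of the pathway were read from a separate list of 82 further genes, 54 of which passed the filter. Of 10 interferon genes, 7, among them Ifnb1 and Ifng, had 0 fragments in all 12 libraries. Ifnl3 had at most 5 fragments in a library and 7 in all, Ifnk at most 3 and 9 in all, and Ifnl2 had 2 in a single library. Interferon transcripts were thus hardly detectable at this depth. All 6 receptor genes passed the filter and none was called in a comparison, where 5.13% to 12.9% of all genes were. By the adjusted p alone, 5 of the 6 were higher with hemin in labelled KO and 4 in control, against 29.9% and 23.2%. Ifnar1 and Ifnar2, the type I receptor, had log2 changes with hemin of 0.47 and 0.89 in control and of 0.72 and 0.39 in labelled KO. Ifnlr1, the type III receptor, was at 5.22, 5.26 and 4.59 FPKM with vehicle and 8.67, 7.32 and 7.38 with hemin in labelled KO (log2 change 0.54, adjusted p = 0.00017). In control it was at 5.86, 5.83 and 5.92 with vehicle and 5.79, 6.29 and 5.22 with hemin. The kinase genes Jak1 and Tyk2 had changes of 0.65 and 0.55 in labelled KO, each past the adjusted p.

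Of the 10 adaptors and sensors upstream of interferon, Tmem173 was called in 4 comparisons. It encodes STING, the adaptor for cytosolic DNA, and was at 4.21, 3.48 and 3.76 FPKM in control with vehicle and 0.305, 0.551 and 0.186 with hemin (log2 change −1.85, adjusted p = 2.2e-07). In labelled KO it was at 13.6, 14.3 and 12.4 with vehicle and 0.784, 0.868 and 0.696 with hemin, a log2 change of −3.02 (SE 0.10, adjusted p = 2.6e-09). Tmem173 was thus higher in labelled KO under vehicle (1.58), and its interaction was −1.17 (adjusted p = 0.00023). All libraries with hemin were under 1 FPKM, where the log2(FPKM + 1) scale understates a fall. The size of this interaction therefore depends on the pseudocount and in part restates the vehicle difference. Tlr3, the endosomal receptor for double-stranded RNA, was lower in labelled KO under hemin (−1.01, adjusted p = 0.00069), as was the interferon regulatory factor Irf8 (−1.10, adjusted p = 7.9e-06). Socs3, a feedback inhibitor of JAK signalling, was at 6.27, 6.31 and 6.85 FPKM in control with vehicle and 0.973, 1.70 and 0.945 in labelled KO (log2 difference −1.78, adjusted p = 1.0e-05). Its interaction was 1.26 (adjusted p = 0.0031).

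Of 38 further interferon-stimulated genes on that list, 22 passed the filter. With hemin in labelled KO, 5 rose (Ifi30, Shisa5, Lgals3bp, Ifit3b and Cmpk2, by 1.62, 1.21, 1.08, 1.08 and 1.05) and none fell by the call, against 4.87% and 8.07% of all genes tested. By the adjusted p alone 11 were higher and 4 lower, against 29.9% and 30.4%. In control with hemin 1 was called, against 8.11% of all genes, Ifi30 (1.28), a lysosomal thiol reductase of antigen processing. Ifi30 was also higher in labelled KO than in control under hemin (1.15), where it was the only call of the 22, against 6.01% of all genes. Ly6e, a membrane protein that restricts some viruses, was higher in labelled KO under vehicle (1.5, adjusted p = 1.4e-06), at 103, 107 and 103 FPKM against 40.2, 34.2 and 34.2. The interaction was called for 1 of the 22, Ifi27l2a (−1.08, adjusted p = 0.049), against 5.13% of all genes, and for none with a larger change in labelled KO. The median interaction was 0.13 over the 22 and 0.41 over the 32 members. The median change of the 22 with hemin was 0.24 in labelled KO and 0.37 in control.

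Rescaling the FPKM to TPM shifted the median of all genes by −0.31 with hemin in labelled KO and by −0.18 in control. Against the median of all genes under TPM, the members' median stood 0.90 higher in labelled KO and 0.35 higher in control, where the deposited scaling gave 0.80 and 0.31. All called values of members had the same sign under both scalings.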

How the data were processed

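Poly-A mRNA was selected and sequenced by Novogene. Per the submitters' processing notes, tools named are fastp, HISAT2 2.0.5 and featureCounts 1.5.0-p3 with the mm10 genome. The authors deposited FPKM for 54532 genes and 12 libraries, with gene coordinates and lengths and no comparison. The deposited values already carried a scaling between libraries, as median-of-ratios factors were equal in all. In each library 100% of values were whole multiples of 1 fragment (tolerance 0.01), so fragments were recovered for depth, floors (3 fragments) and limma-voom. Coordinates are as deposited, and 47 of 49 members have the same start and end in GENCODE M21.

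Groups, replicate numbers and genotypes came from the labels, dose and time from the study. The paper gives 200 µM and 24 hours with its cell death assay of these colonoids and prints no dose with the RNA sequencing. The analysis of the FPKM used limma 3.58.1 in R 4.3.3, and Python 3.11.15 (pandas 2.3.3, matplotlib 3.10.9). limma with an intensity trend was fitted to log2(FPKM + 1) over all 12 libraries, 1 mean per group, on the 12740 genes that reached an FPKM of 1 in 3 or more libraries, with 8 residual degrees of freedom. The p-values are two-sided and adjusted by Benjamini-Hochberg over all genes tested. Calls needed an adjusted p under 0.05 together with a log2 change larger than 1 in size. The comparisons were hemin against vehicle in each genotype, labelled KO against control under each treatment, and their interaction. The functions were tested on simulated data.

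The members and gene lists were chosen with earlier results of these data known. Named in the text were every member called in a comparison, Hmox1, further members only to account for a role group or for those below the filter, the called genes of the pathway list, and marker sums. Outside that rule, the interferons, receptors and kinases named were chosen after their values were seen. Chi-square per degree of freedom between libraries of a group was 1.93 to 43.1, so none repeated another within sampling noise. Alternatives tried were leaving out each library, the replicate number as a block, limma-voom on recovered fragments, TPM and median-of-ratios scaling, 0.1 as pseudocount, moderation without the intensity trend, no low-value filter and a mean FPKM of at least 5. limma-voom on genes with at least 10 fragments and TPM without Gm23935 were added after seeing the data. Promoter sequences are from RefSeq (GRCm38.p6). The raw reads were not used here, and 1 gene of the pathway list is not reported here.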

Additional observations from a re-analysis of the deposited data

Results flagged for a closer look

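The difference in hemin response between the genotypes was called for 9 of 32 members, against 5.13% of all genes tested, from the interaction term of limma with Benjamini-Hochberg adjustment, on the log2(FPKM + 1) scale. The change was larger in labelled KO for Rsad2 (1.99), Isg15 (1.77), Rtp4 (1.20), Oas3 (1.08), Oasl2 (1.06) and Ifit3 (1.03). It was more negative in labelled KO for Ifitm2 (−2.15), and smaller there for Ddx58 (−1.25). The value of Ifitm3 (−4.18) repeats its vehicle difference with the sign turned, as both groups with hemin were at 0, and is no measure of a differing response. Rsad2 and Oas3 passed the filter through the labelled KO libraries with hemin only, and Ifitm3 through those with vehicle only. Without these 3, the change was larger in labelled KO for 4 of 29 members and smaller or more negative for 2. Over all genes tested the shares were 2.57% and 2.56%. The calls of Ifit3, Rsad2, Isg15, Rtp4 and Oasl2 were lost under 1 or more of the alternatives, with the same sign.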

How the results depend on the processing

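The number of members called with hemin in labelled KO was 16, and 13 to 16 with each library left out, 8 with a mean FPKM of at least 5 (17 members tested) and 27 with limma-voom on genes with at least 10 fragments (48 tested). Calls over all genes moved too, from 12.9% to 13.7% and 20.8% there, and under hemin between genotypes from 6.01% to 5.55% and 11%. With hemin in control it was 5, and 8 with a pseudocount of 0.1, 3 with a mean FPKM of at least 5, 8 with limma-voom, 9 with limma-voom on genes with at least 10 fragments and 4 to 5 with each library left out, where calls over all genes were 8.11% and then 13.8%, 8.27%, 14.4% and 13.8%. Between genotypes under vehicle it was 1, and 2 with a pseudocount of 0.1 and 4 with limma-voom on genes with at least 10 fragments. Calls over all genes were 6.8%, and 9.71% and 12.2% under those settings. The count was 0 to 1 with each library left out, since Ifitm3 fails the filter without any 1 of the labelled KO libraries with vehicle. Between genotypes under hemin it was 5, and 10 with a pseudocount of 0.1, 1 with a mean FPKM of at least 5, 9 with TPM (7 higher, 2 lower), 10 with limma-voom, 17 with limma-voom on genes with at least 10 fragments, 9 with TPM without Gm23935 and 4 to 8 with each library left out. For the interaction it was 9, and 2 with a mean FPKM of at least 5 (both more negative in labelled KO, or smaller there, of 17 tested), 6 with TPM (3 in each direction) and 5 to 10 with each library left out. Calls over all genes were 5.13%, 4.39% and 6.34% there. The other alternatives stayed within 1.5 times these counts. Except for the filters and the left-out libraries, which change the genes or samples tested, the cause was not tested.

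With the replicate number as a block the counts were 16, 5, 1, 5 and 10, in the same order. The block was no pairing, since deviations of same-numbered libraries correlated on average at −0.042 (−0.327 to 0.179).

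For 28 called values of single members, leaving out Hmox1, the 3 genes that passed the filter through 1 group and median-of-ratios scaling, whose factors are equal, 544 values under 21 alternatives were still past the threshold and 28 were not, with no change of sign. Of the 28, 15 were the interaction of Ifit3. With limma-voom, the interactions of Rsad2, Isg15 and Rtp4 were 2.74, 2.01 and 1.37, with adjusted p of 0.069, 0.062 and 0.12. With TPM, those of Oasl2 and Rtp4 were 1.27 and 1.21, with 0.072 and 0.064, and the hemin changes of Ifit1bl1 and Oasl1 in labelled KO were 0.90 and 0.76. With TPM, 403 genes were called higher and 2334 lower with hemin in labelled KO, in place of 620 and 1028.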
